A study of Mus musculus with 24 samples.

Results

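The data describe 7 genes that are discussed together as regulators of macrophage identity and self-renewal: Maf, Myc, Mycl, Klf2, Klf4, Klf6 and Sirt1. They were chosen by name, as the rows whose Ensembl identifier maps to these symbols, and all 7 were found among the 17301 genes of the expression table and passed the filter on low values that left 12878 genes for testing. The values are log2 RPKM, in which reads are divided by the length of the gene and the size of the library, so that levels can be compared between genes as well as between libraries. RNA was sequenced from 4 sorted myeloid populations of the mouse colon, namely F4/80hi MHCIIhi macrophages, F4/80hi MHCIIlow macrophages, Ly6Chi MHCII- monocytes and Ly6Ghi F4/80- CD11b+ neutrophils.

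Each population was sorted from the lamina propria (LP), the connective tissue under the gut epithelium, of C57BL/6J mice (strain label C57/BL), and from tumours that arose in the colon of Apc Min/+ mice (strain label APC/Min), which carry a truncating mutation of the tumour suppressor Apc in all cells and develop adenomas. There were 3 libraries in each of the 8 groups, each made from cells of pooled mice of both sexes in a separate experiment and numbered by the labels as a donor. Tumours were grown with the help of dextran sodium sulphate in the drinking water. The study gives this treatment for the donors of LP too, by its wording at a lower concentration, whereas the labels call the LP healthy. LP was stripped of epithelium with EDTA before its collagenase digestion and tumours were not. Tumours were digested for a shorter time and with DNase, and the Percoll step differed. The mutation, the tumour tissue, the concentration of dextran sodium sulphate and the isolation of cells all differ between the LP and the tumour groups and cannot be told apart. P values measure the spread between pools, and in sorted bulk samples fewer cells of a type and less RNA per cell cannot be told apart either.

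Maf (c-Maf) is a basic leucine zipper protein that takes part in keeping mature macrophages from dividing in response to Csf1, and Myc and Klf4 take part in that division. Myc is the basic helix-loop-helix factor that drives ribosome making and growth, and Mycl is its relative in dendritic cells and macrophages. Klf2, Klf4 and Klf6 are zinc finger proteins of the Krueppel-like family: Klf2 restrains the inflammatory activation of myeloid cells, Klf4 is needed for monocyte development and macrophage polarization, and Klf6 promotes inflammatory responses in macrophages. Sirt1 is a deacetylase that uses NAD+ and that has been linked to the self-renewal of macrophages.

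All 7 are annotated protein-coding genes of GRCm38 (GENCODE M21). Maf lies at chr8:115682942-115707794 on the minus strand, Myc at chr15:61985391-61990374 on the plus strand, Mycl at chr4:122995652-123002485 on the plus strand, Klf2 at chr8:72319033-72321656 on the plus strand, Klf4 at chr4:55527143-55532466 on the minus strand, Klf6 at chr13:5861482-5870394 on the plus strand and Sirt1 at chr10:63319005-63381704 on the minus strand. Values are over exons, and exons of Maf shared 5.34% of their bases with Gm15655 on the other strand and those of Sirt1 1.22% with Gm16145, whose reads cannot be told apart from theirs because no use of strand is stated. Of the 51-base stretches of their transcripts, at most 4.63% (Maf) also occur in other genes.

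RefSeq start sites (GRCm38.p6) gave promoter windows, from 250 bases before to 50 bases after the start, for 5 of the 7 genes: Klf2, Klf4, Klf6, Mycl and Sirt1. The letters CACGTG, the E-box that dimers of Myc and Max bind, occur in 3 of these 5 windows and in 7.15% of all 32851 promoter windows of the same length. The letters CTA and TAG with any 4 bases between them, which MEF2 factors bind and which the Klf2 promoter is known for, occur in the window of Klf2 and in 3.69% of all windows. The stretches that hold them are shown because the letters are those that Myc with Max and MEF2 factors bind. Each is given 5′ to 3′ on the strand of its gene and ends before the RefSeq start, with the motif in capitals.

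Sirt1, chr10:63339053-63339170 on the minus strand, with the first letter of its motifs 115 and 43 bases before the start: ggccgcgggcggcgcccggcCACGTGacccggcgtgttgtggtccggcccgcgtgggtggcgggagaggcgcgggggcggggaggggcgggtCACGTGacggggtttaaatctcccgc
Klf4, chr4:55532627-55532682 on the minus strand, 182 bases before the start: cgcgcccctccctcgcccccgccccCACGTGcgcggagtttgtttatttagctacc
Klf6, chr13:5861421-5861476 on the plus strand, 43 bases before the start: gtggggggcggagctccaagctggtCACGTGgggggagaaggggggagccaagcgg
Klf2, chr8:72318919-72318978 on the plus strand, 118 bases before the start: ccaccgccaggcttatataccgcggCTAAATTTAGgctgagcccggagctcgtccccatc

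Both strands were searched, and no 2 of these matches overlap. The cyclic AMP response element TGACGTCA occurs in 0 of the 5 windows and in 1.79% of all windows, the GC box GGGCGG in 5 of the 5 and in 35.7% of all, and CACCC, the core of sites of Krueppel-like factors, in Mycl, Klf2 and Sirt1 and in 57.5% of all. A match is a description of the letters and was not tested for binding.

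Libraries held 12.8 to 41.7 M reads. The library sizes that the deposited values were divided by were 0.466 to 0.682 of these reads in neutrophils, 0.981 to 1.208 in monocytes and 1.133 to 1.507 in macrophages, so differences between populations depend on that scaling more than those within one. The labels were checked against markers. The summed RPKM of 6 neutrophil markers was 8400 to 27300 in neutrophils and at most 233 in the other groups, that of 5 macrophage markers was 1530 to 3270 in macrophages and 178 to 706 in the others, and that of 4 monocyte markers was 284 to 634 in monocytes but 570 to 984 in neutrophils and at most 18.1 in macrophages. LP and tumour also differed in markers of other cells. The sum of 5 B and plasma cell markers was 156 to 575 RPKM in LP monocytes and 356 to 1290 in LP neutrophils but at most 3.06 and 19.9 in their tumour counterparts, and fibroblast markers were 5.47 to 43.6 RPKM in LP and at most 1.57 in tumours. Epithelial markers summed to 61.5 to 192 RPKM in monocytes of tumours against 17.3 to 137 in those of LP, and to 88.4 to 187 RPKM in neutrophils of tumours against 8.72 to 39.7 in those of LP.

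The 7 genes were expressed at very different levels. On the RPKM scale, which corrects for gene length, Klf6 was the most abundant in every group, with group means from 231 in tumour MHCIIlow macrophages to 1063 in tumour neutrophils. The highest group mean of Klf2 was 56.1 RPKM, of Klf4 29.4, of Myc 21.1, of Maf 12.2, of Sirt1 4.22 and of Mycl 1.11. By group mean in the deposited scaling, Maf, Myc, Klf4 and Sirt1 peaked in LP MHCIIlow macrophages, Mycl in LP MHCIIhi macrophages, and Klf2 and Klf6 in tumour neutrophils. Libraries of the top group overlapped those of the next group for all genes but Klf4 and Klf6. For Myc the top mean leant on LP library II (5.06, against 3.81 in III and 3.97 in IV). The ranks of Klf2 and Klf6 depend on the scaling and were not computed with other library sizes. Between the highest and the lowest group the mean level differed by 6.86 on the log2 scale for Maf, 4.34 for Klf4, 3.90 for Klf2, 3.60 for Myc, 2.24 for Klf6 and 1.85 for Sirt1.

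**Figure D1:**
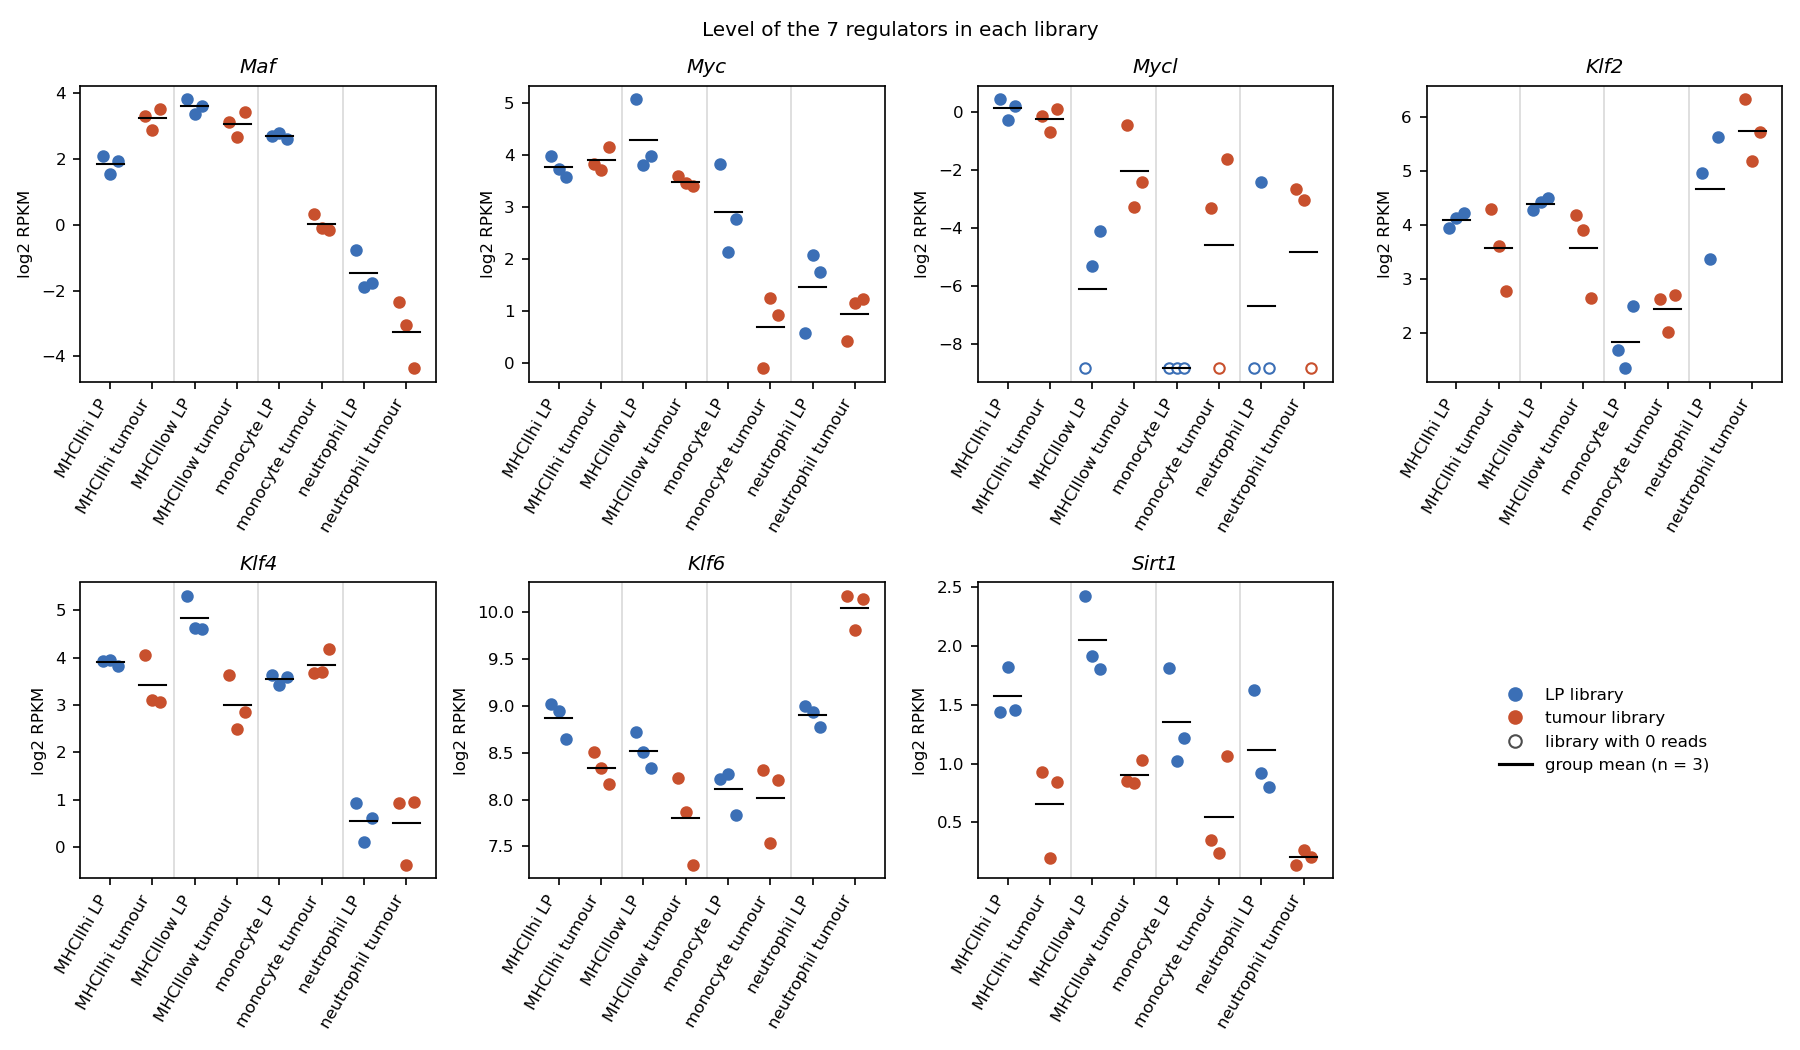
Level of each of the 7 genes in each of the 24 libraries, in log2 RPKM (vertical axis, own range for each gene), in the 8 groups along the horizontal axis. Blue points are LP and orange points tumour libraries, open points are libraries with 0 reads, which hold the value that the prior count of the deposited scale gives, and bars are means of 3 libraries. Maf and Myc are low in tumour monocytes, Sirt1 is lower in tumours in every population by its mean, and Klf6 is highest in tumour neutrophils in this scaling.

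The main question of the design is what differs between a population in tumours and the same population in LP. In MHCIIhi macrophages 1 of the 7 genes passed the test (Maf, higher in tumours), where 19.5% of all genes tested did. In MHCIIlow macrophages 3 of the 7 passed (Klf4, Klf6 and Sirt1, all lower in tumours), against 23.3% of all genes. In monocytes 2 of the 7 passed (Maf and Myc, both lower in tumours), against 9.29% of all genes. In neutrophils 3 of the 7 passed (Klf6 higher, Maf and Sirt1 lower in tumours), against 32.2% of all genes. The median difference of the 7 genes was -0.49 in MHCIIhi macrophages, -0.80 in MHCIIlow macrophages, -0.09 in monocytes and -0.05 in neutrophils, against medians of all genes of 0, 0.06, 0 and -0.12. No member passed the test in all 4 populations, and Mycl and Klf2 passed in none of them. Counted instead by libraries that do not overlap, 2 of the 7 genes lay lower in tumours in MHCIIhi macrophages (22.1% of all genes), 5 in MHCIIlow macrophages (19.3%), 2 in monocytes (15.1%) and 2 in neutrophils (21.8%). In each population 1 of the 7 lay higher in tumours without overlap, against 20.9%, 22.7%, 16.2% and 18.3% of all genes, namely Maf in MHCIIhi macrophages, Mycl in MHCIIlow macrophages, Klf4 in monocytes and Klf6 in neutrophils.

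**Figure D2:**
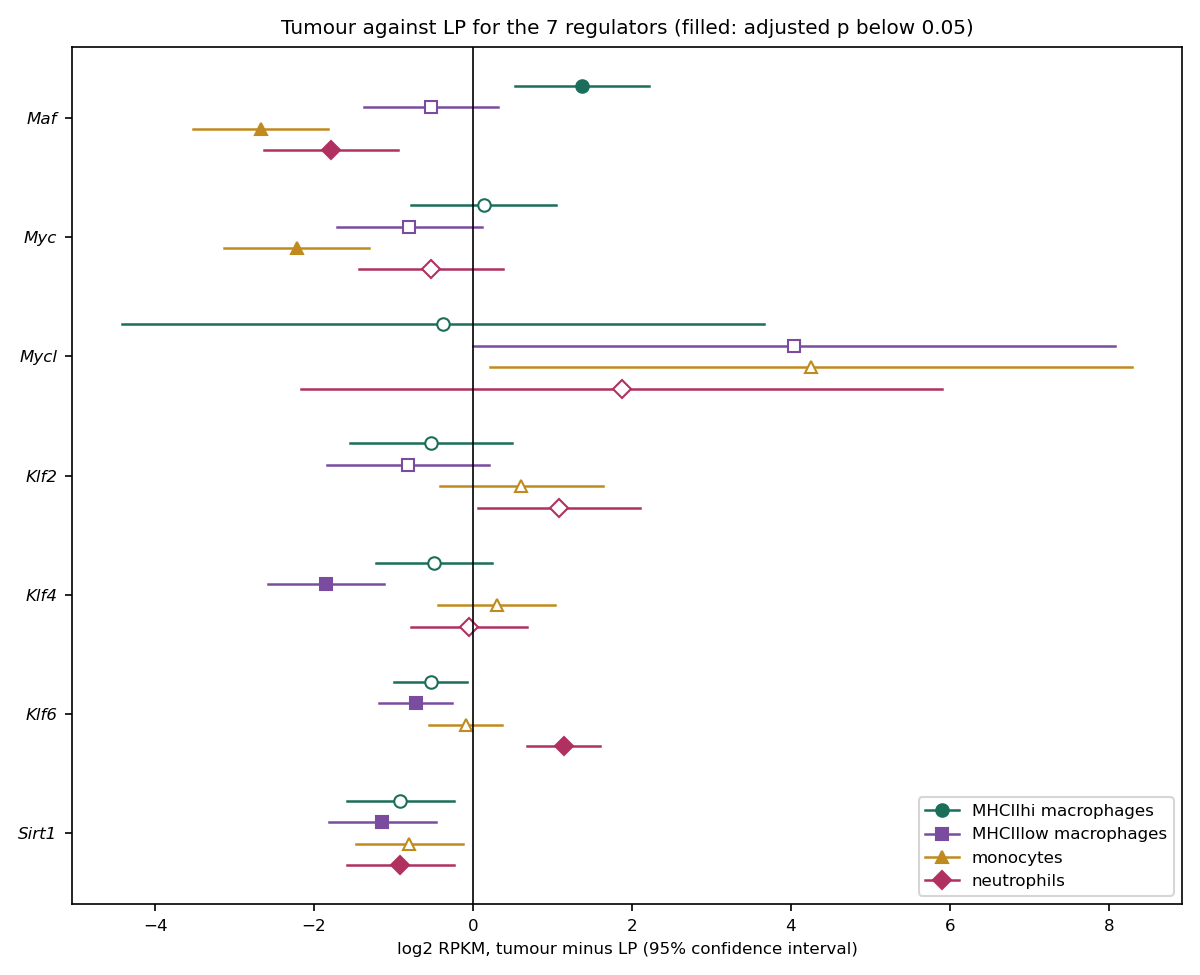
Difference between tumour and LP in log2 RPKM (horizontal axis) for each of the 7 genes in the 4 populations, with its 95% confidence interval. Filled symbols passed the test (adjusted p below 0.05). Maf is to the right of 0 in MHCIIhi macrophages and to the left in monocytes and neutrophils, whereas the 4 intervals of Sirt1 all lie left of 0.

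Maf differed between tumour and LP in opposite directions in different populations. In MHCIIhi macrophages Maf was 2.08, 1.54 and 1.95 log2 RPKM in LP libraries III, IV and V and 3.29, 2.87 and 3.53 in tumour libraries I, V and VII. All tumour libraries lay above all LP libraries, and Maf rose 2.59-fold (log2 difference 1.37, SE 0.41, adjusted p = 0.0204). The call did not survive the loss of LP library IV (adjusted p = 0.0877), tumour library I (0.0576) or tumour library VII (0.0867), with differences of 1.21 to 1.56 over the 6 libraries left out in turn. The sum of the macrophage markers was also higher in these tumour libraries, at 2950 to 3270 against 1780 to 2140 RPKM, with 3 of 5 called higher. Markers of some other cells were lower, with 3 of the 3 fibroblast, 2 of the 3 dendritic cell and 2 of the 4 monocyte markers tested called. Neutrophil markers summed to 1.62 to 3.53 RPKM in LP and 4.96 to 11.9 in tumours, with 1 of 6 called higher. For epithelial markers 4 of 5 differences were above 0, with 0 called. Their part in the result was not tested.

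In MHCIIlow macrophages Maf was 3.81, 3.38 and 3.62 in LP libraries II, III and IV and 3.13, 2.66 and 3.43 in tumour libraries I, V and VII. The groups overlapped, with a difference of -0.53 (95% confidence interval -1.37 to 0.32, adjusted p = 0.397), and the direction was called only with voom on the recovered reads (adjusted p = 0.0305). LP MHCIIlow macrophages thus held the highest Maf mean of all groups, and tumour MHCIIhi, tumour MHCIIlow, and LP monocytes followed with ranges that overlapped from one to the next.

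In monocytes Maf was 2.69, 2.79 and 2.61 in LP libraries III, IV and V and 0.33, -0.09 and -0.16 in tumour libraries I, II and V. Every tumour library lay more than 2 log2 units below every LP library, and Maf fell by 2.67 (SE 0.41, adjusted p = 2.82e-04), a call kept under all 14 alternatives tried. This was counted on 1340 to 2517 reads in LP and 191 to 311 in tumour libraries. The sum of the macrophage markers in monocytes ran from 432 to 526 RPKM in LP and from 645 to 706 in tumours, and its part in the result was not tested. B and plasma cell markers moved with Maf in these samples, with 3 of the 4 tested lower in tumour monocytes. Mzb1 had 0 reads in all 3 tumour libraries. Fibroblast markers fell too, with 3 of the 3 tested lower. Epithelial markers went the other way, with 1 of the 5 tested called higher. LP neutrophils held 356 to 1290 RPKM of the B and plasma cell markers, against 156 to 575 in LP monocytes. Mean Maf was 0.384 RPKM in LP neutrophils and 6.50 in LP monocytes. The part of these markers in the result was not tested.

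In neutrophils, where Maf was lowest, it was -0.77, -1.88 and -1.76 in LP libraries III, IV and V (30 to 115 reads) and -2.35, -3.06 and -4.37 in tumour libraries I, II and V (3 to 20 reads). The groups did not overlap and Maf fell by 1.79 (SE 0.41, adjusted p = 0.00214). At these read numbers the call depended on the model: it was lost with log2(RPKM + 1) (adjusted p = 0.255), with only the 6 neutrophil libraries in the fit (0.16) and with voom (0.199).

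The difference between tumour and LP was 3.10 higher in macrophages (mean of both subsets) than in monocytes (SE 0.50, adjusted p = 3.89e-04), and this was called under all 26 alternatives. For this difference of differences 3 of the 7 genes passed (Maf, Myc and Klf4), against 9.19% of all genes. Between MHCIIlow and MHCIIhi macrophages 0 of the 7 passed for the difference of the tumour effects, against 1.46% of all genes, and 2 had an unadjusted limma p under 0.05. They were Maf, at -1.90 (adjusted p = 0.116), and Klf4, at -1.36 (adjusted p = 0.217). Maf passed with log2(RPKM + 1) (adjusted p = 0.00206), with only the macrophage libraries (0.0469) and with voom (5.62e-04), and Klf4 with voom (0.0312).

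The contrast between the macrophage subsets also depended on the tissue. In LP Maf was 1.74 higher in MHCIIlow than in MHCIIhi macrophages (SE 0.41, adjusted p = 0.0108), without overlap, and it was the 1 member of 7 that passed, against 7.70% of all genes. This call was lost without LP MHCIIhi library IV (adjusted p = 0.0572) or LP MHCIIlow library II (0.0509). In tumours the same contrast was -0.16 (95% confidence interval -1.0 to 0.69, adjusted p = 1). No member passed there, against 1.13% of all genes, 1 member (Klf6) had an unadjusted limma p under 0.05, and voom called 0 as well.

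Against monocytes, macrophages of tumours held 3.12 more Maf on the log2 scale (SE 0.35, adjusted p = 5.35e-07), whereas in LP the difference was 0.03 (95% confidence interval -0.70 to 0.76). Neutrophils held less than monocytes in LP, by -4.17 (SE 0.41, adjusted p = 4.62e-08), and in tumours, by -3.29 (SE 0.41, adjusted p = 9.40e-07). The 3 genes most like Maf over the 24 libraries, among 5395 genes compared, were Timm21 (Pearson r 0.94), Snx2 (0.94) and Tmem106a (0.94).

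The 3 small Maf proteins, Maff, Mafg and Mafk, lack an activation domain. Mafg was lower in tumour MHCIIhi macrophages (-0.67, adjusted p = 0.0339), a call lost without tumour library VII (0.24) or any of the 3 LP libraries (0.0775 to 0.0838), and in tumour MHCIIlow macrophages 2 of the 3 were lower, with Mafk at -1.15 (adjusted p = 0.00242). Maff was higher in tumour monocytes (0.93, adjusted p = 0.0494), a call lost with every library left out (adjusted p up to 0.168, without tumour library I), and in tumour neutrophils (0.91, adjusted p = 0.0213), a call lost without LP library IV (0.0825) or tumour library II (0.0511). Among all genes 11.8% were called lower in tumour MHCIIlow macrophages.

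Of 10 genes linked to Maf in macrophages, among them the interleukin Il10, the complement genes C1qa, C1qb and C1qc and the scavenger or uptake receptors Cd163, Mrc1, Folr2, Timd4 and Lyve1, 0 rose and 2 fell in tumour MHCIIhi macrophages, where Maf itself was higher. F13a1, a coagulation factor of tissue macrophages and monocytes, fell there by 2.95 (SE 0.51, adjusted p = 2.89e-04). In tumour MHCIIlow macrophages 0 rose and 6 fell. The difference was above 0 for 3 of the 10 genes in each subset, with C1qa among them in MHCIIlow macrophages. Lyve1, the hyaluronan receptor of perivascular macrophages, had 32258, 1694 and 2197 reads in LP libraries II, III and IV and 6, 0 and 0 in tumour libraries I, V and VII (adjusted p = 3.36e-07), and its fitted difference depends on the prior count. The median of the 10 genes was -1.5 in MHCIIhi and -3.23 in MHCIIlow macrophages, and voom called 6 and 9 of them. By limma 8.01% of all genes rose and 11.5% fell in MHCIIhi macrophages, and 11.5% and 11.8% in MHCIIlow macrophages.

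In monocytes 1 of the 10 rose and 2 fell in tumours. Il10 was 1.32 higher (adjusted p = 0.039), a call lost with each library left out (adjusted p up to 0.134, without LP library III), and Mrc1, the mannose receptor, fell by 2.60 (adjusted p = 0.00773), a call lost without tumour library I (0.0579). In neutrophils 1 rose and 3 fell, with F13a1 at 2.45 (adjusted p = 0.00103), whereas voom called 0 of the 10. The medians of the 10 genes were -0.28 in monocytes and -0.05 in neutrophils. By limma 4.86% of all genes rose and 4.43% fell in monocytes, and 13.1% and 19% in neutrophils.

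Myc was lower in tumour than in LP monocytes, and its level in macrophages did not pass the test in either subset. In monocytes Myc was 3.82, 2.13 and 2.77 log2 RPKM in LP libraries III, IV and V (532 to 983 reads) and -0.10, 1.24 and 0.92 in tumour libraries I, II and V (77 to 185 reads). The LP libraries differed among themselves by 1.69 but all lay above the tumour libraries, and Myc fell by 2.22 (SE 0.44, adjusted p = 0.00259). The same B and plasma cell and fibroblast markers fell here as for Maf, 1 of the 5 epithelial markers was called higher, and their part was not tested. The fall held with each library left out (-1.76 to -2.61, adjusted p at most 0.0215) and was not called with only the monocyte libraries in the fit (adjusted p = 0.0731).

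In MHCIIhi macrophages Myc was 3.98, 3.73 and 3.57 in LP libraries III, IV and V and 3.82, 3.71 and 4.15 in tumour libraries I, V and VII, with a difference of 0.13 (95% confidence interval -0.78 to 1.05). In MHCIIlow macrophages it was 5.06, 3.81 and 3.97 in LP libraries II, III and IV and 3.60, 3.45 and 3.39 in tumour libraries I, V and VII. Here the tumour libraries lay below the LP libraries without overlap, but the difference of -0.80 did not pass (SE 0.44, adjusted p = 0.208), and voom called it (0.0346). In neutrophils Myc was 0.57, 2.07 and 1.75 in LP libraries III, IV and V and 0.42, 1.15 and 1.24 in tumour libraries I, II and V, which overlap (difference -0.53, adjusted p = 0.383).

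In tumours Myc was 3.0 higher in macrophages than in monocytes (SE 0.38, adjusted p = 2.36e-06) with all macrophage libraries above all monocyte libraries, and 3 of the 7 genes passed against 38.3% of all genes. In LP Myc was 1.12 higher in macrophages (adjusted p = 0.0309) with overlapping libraries, and 5 of the 7 passed against 29.5% of all genes. That LP call was lost without LP MHCIIhi library III (adjusted p = 0.0587), LP MHCIIlow library II (0.0726), LP monocyte library IV (0.229) or LP monocyte library V (0.108) and with only the libraries compared (0.0633). The tumour effect on Myc was 1.89 higher in macrophages than in monocytes (SE 0.53, adjusted p = 0.0295), a call lost without LP monocyte library III (0.115), LP monocyte library V (0.0536) or tumour monocyte library I (0.116) and with voom (0.0701).

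Against monocytes, LP neutrophils held less Myc (-1.44, SE 0.44, adjusted p = 0.00876), a call lost without LP monocyte library III (0.073) or LP neutrophil library III (0.0713) and with only the libraries compared (0.0825), and larger with library sizes as summed reads (-2.27), and tumour neutrophils did not differ beyond the error (0.25, 95% confidence interval -0.66 to 1.16). The 3 genes most like Myc over the 24 libraries were Ppan (r = 0.94), a ribosome biogenesis gene, Blnk (0.94) and Thumpd1 (0.92).

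**Figure D3:**
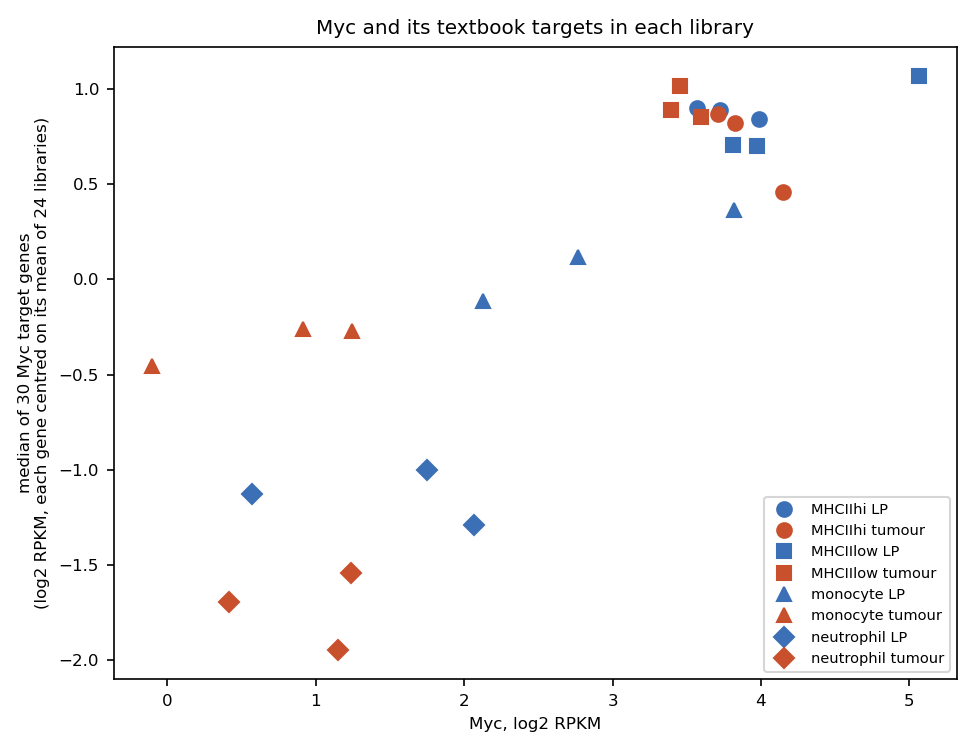
Myc in log2 RPKM (horizontal axis) against the median of 30 textbook Myc targets, each centred on its mean of the 24 libraries (vertical axis, log2 RPKM), for every library. Symbols give the population and colours the tissue. Macrophage libraries lie together at 0.46 to 1.07, monocytes of LP at -0.11 to 0.36, monocytes of tumours at -0.45 to -0.26, and neutrophils at or below -1.0.

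The targets followed the populations. The 30 textbook targets are mostly genes of nucleolus, ribosome making and nucleotide or polyamine synthesis. The others act in translation, the cell cycle, protein folding and one-carbon metabolism. In LP macrophages 14 were higher and 0 lower than in LP monocytes, against 12.5% and 17% of all genes. In tumours 18 were higher and 1 lower, against 16.8% and 21.4% of all genes. The median differences of the targets were 0.74 and 1.15, against medians of all genes of -0.02 and 0. Within monocytes the median of the centred targets ran from -0.11 to 0.36 in LP and from -0.45 to -0.26 in tumours, without overlap. Of the single targets 0 rose and 2 fell in tumour monocytes, against 4.86% and 4.43% of all genes. Nop2, an rRNA methyltransferase, was among those that fell (-1.0, adjusted p = 0.0344). Its call was lost in 5 of the 6 fits without a library, all but LP library IV (adjusted p up to 0.191, without LP library III).

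In tumour MHCIIhi macrophages 1 target rose and 4 fell, against 8.01% and 11.5% of all genes. Eif4e, the cap-binding translation factor, fell by 1.92 (adjusted p = 2.44e-06) and the mitochondrial chaperonin Hspe1 rose by 1.99 (adjusted p = 0.00249). In tumour MHCIIlow macrophages 3 rose and 4 fell, against 11.5% and 11.8% of all genes. Eif4e was at -1.46 there (adjusted p = 4.39e-05). Shmt2, a serine hydroxymethyltransferase of mitochondria, was at 1.51 (adjusted p = 0.0311). The call of Shmt2 was lost when LP library IV was left out (0.139) and when V (0.116) or VII (0.0722) of the tumours was. In tumour neutrophils 0 rose and 8 fell, against 13.1% and 19% of all genes. Noc4l was at -1.47 there (adjusted p = 0.00972), lost without tumour library II (0.0554). The centred median was -1.29 to -1.0 in LP and -1.95 to -1.54 in tumour neutrophils.

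Of 9 tested partners and antagonists of Myc, 0 rose and 1 fell in tumour MHCIIhi macrophages, namely Zbtb17 (Miz-1), through which Myc represses genes (-0.64, adjusted p = 0.0363), a call lost in 5 of the 6 fits without a library, all but tumour library V (adjusted p up to 0.161, without tumour library VII). In MHCIIlow macrophages 1 rose and 0 fell (Mlxip, a sensor of glucose metabolites, 0.78, adjusted p = 0.0104, lost without LP library II at 0.0704). In monocytes 1 rose and 0 fell, namely Mxi1, which competes with Myc for Max, at 1.14 (adjusted p = 0.00275), where Myc was lower. In neutrophils 4 rose and 2 fell, with Mlx at 1.52 (adjusted p = 1.97e-06) and Zbtb17 at -1.10 (adjusted p = 5.19e-04). Among all genes 8.01% rose and 11.5% fell in MHCIIhi macrophages, and 11.5% and 11.8% in MHCIIlow macrophages. These shares were 4.86% and 4.43% in monocytes and 13.1% and 19% in neutrophils.

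Mycl had few or no reads in monocytes, neutrophils and LP MHCIIlow macrophages, so it is described by reads. It had 225, 160 and 146 reads in LP MHCIIhi libraries III, IV and V and 100, 110 and 125 in tumour MHCIIhi libraries I, V and VII. LP MHCIIlow libraries II, III and IV had 0, 2 and 4 reads, whereas tumour MHCIIlow libraries I, V and VII had 78, 18 and 21. All 3 LP monocyte libraries had 0 reads, and tumour monocyte libraries I, II and V had 12, 0 and 34.

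In LP, after scaling to library size, reads of Mycl were 59.4-fold more abundant in MHCIIhi than in MHCIIlow macrophages (95% exact interval 27.1 to 162, counting error only). With so few reads in MHCIIlow macrophages that ratio was 28.9 without LP MHCIIlow library II and 139 without library IV. Across libraries the fitted difference did not pass the test (-6.21, SE 1.93, adjusted p = 0.055) and passed with log2(RPKM + 1) (adjusted p = 3.17e-04) and with voom (0.00222). In tumours the same ratio was 2.79 (2.26 to 3.48), and it was 6.11 without tumour MHCIIlow library I, which held most of the reads of its group, and 1.83 without library V. The sum of 5 dendritic cell markers was 9.99 to 14.2 RPKM in LP MHCIIhi and 3.66 to 8.58 in LP MHCIIlow macrophages. It was 6.06 to 9.3 in LP monocytes and 19.6 to 43.3 in LP neutrophils. In tumours it was at most 1.55 in macrophages, 6.57 in monocytes and 4.35 in neutrophils. The sort had gated out CD11chi MHCIIhi dendritic cells, and the part of these markers in the ratios was not tested. Tumour MHCIIlow macrophages held 16.0-fold more than those of LP by reads (7.14 to 44.5), without overlap, with an adjusted p of 0.147 for the fitted difference and of 0.0398 with voom. This ratio was 7.32 without tumour library I, 24.4 without tumour library V, 7.79 without LP library II and 37.5 without LP library IV.

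Compared with LP monocytes, at a floor of 3 reads in each library, LP MHCIIhi macrophages held at least 50-fold more. For tumour monocytes, of which library II had 0 reads like those of LP, the same bound was 6.45-fold and fell to 2.32-fold without tumour library V, and the fitted difference did not pass (adjusted p = 0.196). LP macrophages as a whole passed against LP monocytes (adjusted p = 0.0118), with a fitted size that depends on the prior count. LP neutrophil libraries III, IV and V had 0, 10 and 0 reads and tumour neutrophil libraries I, II and V had 8, 4 and 0. The genes most like Mycl were Dcstamp (r = 0.76), Mgat5 (0.74) and Cd22 (0.74), over values that for Mycl rest in part on the prior count.

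Klf4 fell in tumour MHCIIlow macrophages. It was 5.30, 4.62 and 4.60 log2 RPKM in LP libraries II, III and IV and 3.63, 2.49 and 2.84 in tumour libraries I, V and VII, so that all tumour libraries lay below all LP libraries. The fall was 1.85 (log2 difference -1.85, SE 0.35, adjusted p = 5.94e-04) and was called under all 14 alternatives, with -1.60 to -2.17 when single libraries were left out. Fibroblast markers fell in the same comparison, from 15.8 to 43.6 RPKM in LP to 0.298 to 0.506 in tumours with 3 of the 3 tested called. Neutrophil markers rose from 1.09 to 9.63 RPKM in LP to 23.3 to 25 in tumours, with 3 of 6 called. Called higher as well were 3 of the 5 macrophage markers and the 1 endothelial marker tested. The part of these markers in this fall and in those of Klf6 and Sirt1 was not tested. The 5 genes that lay lower in tumours without overlap in this comparison were Myc, Klf2, Klf4, Klf6 and Sirt1, and Mycl lay higher without overlap.

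In MHCIIhi macrophages Klf4 was 3.93, 3.95 and 3.82 in LP libraries III, IV and V and 4.06, 3.11 and 3.06 in tumour libraries I, V and VII, which overlap (difference -0.49, 95% confidence interval -1.22 to 0.24, adjusted p = 0.386). In monocytes it was 3.64, 3.43 and 3.59 in LP libraries III, IV and V and 3.67, 3.70 and 4.18 in tumour libraries I, II and V. Tumour libraries were above LP libraries there by a small margin that did not pass (0.30, SE 0.35, adjusted p = 0.695). In neutrophils it was low, with 0.92, 0.11 and 0.61 in LP libraries III, IV and V and 0.92, -0.38 and 0.95 in tumour libraries I, II and V (difference -0.05, 95% confidence interval -0.79 to 0.68).

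The tumour effect on Klf4 was therefore 1.47 lower in macrophages than in monocytes (log2 difference -1.47, SE 0.43, adjusted p = 0.0358). The call held in 5 of the 18 fits that left out a library and was lost in the others, with the highest adjusted p without tumour monocyte library V (0.105), and with library sizes as summed reads (0.0635). In LP the order was MHCIIlow above MHCIIhi macrophages above monocytes without overlap at either step. MHCIIlow exceeded MHCIIhi macrophages by 0.94 (adjusted p = 0.12), which passed with log2(RPKM + 1) (0.0332), voom (0.00673) and summed library sizes (0.0353), and macrophages exceeded monocytes by 0.82 (adjusted p = 0.0492), a call lost with each of the 9 libraries left out in turn (adjusted p up to 0.147, without LP monocyte library IV), with no filter (0.0577) and with centred libraries (0.0541).

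Neutrophils held much less Klf4 than monocytes, by -3.0 in LP (SE 0.35, adjusted p = 5.79e-07) and by -3.35 in tumours (SE 0.35, adjusted p = 1.05e-07), where 5 and 4 of the 7 genes passed against 54.5% and 58.1% of all genes. The genes most like Klf4 were Sdc4 (r = 0.96), Rassf1 (0.95) and Slc1a5 (0.95).

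Klf6 rose in tumour neutrophils and fell in tumour MHCIIlow macrophages. In neutrophils it was 9.0, 8.93 and 8.78 log2 RPKM in LP libraries III, IV and V and 10.18, 9.82 and 10.14 in tumour libraries I, II and V, on 27685 to 60899 reads. The groups did not overlap and Klf6 rose 2.21-fold (log2 difference 1.14, SE 0.22, adjusted p = 5.56e-04), a call kept under all 14 alternatives. The size depended on the scaling, at 1.39 with libraries centred on their median and 0.67 with library sizes as summed reads (adjusted p = 0.0088), settings that moved the median of all genes in this comparison by 0.24 and -0.47.

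In MHCIIlow macrophages Klf6 was 8.72, 8.51 and 8.34 in LP libraries II, III and IV and 8.23, 7.87 and 7.30 in tumour libraries I, V and VII, with no overlap. It fell by 0.72 (SE 0.22, adjusted p = 0.0217). The call was lost without LP library II (0.0881), without tumour library VII (-0.47, adjusted p = 0.148) and with only the MHCIIlow libraries in the fit (0.123). In MHCIIhi macrophages it was 9.02, 8.95 and 8.64 in LP libraries III, IV and V and 8.51, 8.33 and 8.17 in tumour libraries I, V and VII, lower in tumours without overlap but at -0.53 not past the test (SE 0.22, adjusted p = 0.10), and called with voom (0.0446).

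In monocytes Klf6 was 8.22, 8.27 and 7.84 in LP libraries III, IV and V and 8.31, 7.54 and 8.21 in tumour libraries I, II and V, which overlap (difference -0.09, 95% confidence interval -0.55 to 0.37). The tumour effect was 1.23 higher in neutrophils than in monocytes (SE 0.31, adjusted p = 0.0169), and Klf6 was the 1 member of 7 that passed for this difference, against 9.11% of all genes. The call was lost without tumour monocyte library II (0.99, adjusted p = 0.0505).

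Neutrophils exceeded monocytes in Klf6 by 2.03 in tumours (SE 0.22, adjusted p = 1.79e-07), and by 0.89 with library sizes as summed reads (adjusted p = 4.07e-04). In LP the excess was 0.79 (SE 0.22, adjusted p = 0.00502), and with library sizes as summed reads it turned to -0.03 (adjusted p = 0.89), so its direction depends on the scaling. Macrophages exceeded monocytes by 0.59 in LP (adjusted p = 0.0258), a call lost without LP MHCIIhi library III (0.0529), LP MHCIIlow library II (0.0509) or LP monocyte library V (0.16), and by 0.05 in tumours (95% confidence interval -0.35 to 0.45). Among the genes most like Klf6 were Arhgef3 (r = 0.90) and Dusp1 (0.90), a phosphatase gene that is induced by many stimuli.

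By group mean in the deposited scaling Klf2 was highest in neutrophils and lowest in monocytes. LP neutrophils (3.37 to 5.62) overlapped LP MHCIIlow macrophages (4.27 to 4.49), and neutrophils were not tested against macrophages. Klf2 did not pass the test between tumour and LP in any population. In neutrophils it was 4.96, 3.37 and 5.62 log2 RPKM in LP libraries III, IV and V and 6.32, 5.18 and 5.71 in tumour libraries I, II and V, which overlap (difference 1.08, SE 0.49, adjusted p = 0.0983). It passed only with libraries centred on their median (1.33, adjusted p = 0.0369). In monocytes it was 1.68, 1.34 and 2.49 in LP libraries III, IV and V and 2.61, 2.02 and 2.70 in tumour libraries I, II and V (difference 0.61, 95% confidence interval -0.41 to 1.63).

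In MHCIIhi macrophages Klf2 was 3.93, 4.12 and 4.21 in LP libraries III, IV and V and 4.29, 3.61 and 2.77 in tumour libraries I, V and VII. In MHCIIlow macrophages it was 4.27, 4.41 and 4.49 in LP libraries II, III and IV and 4.17, 3.91 and 2.64 in tumour libraries I, V and VII. The LP libraries were close to each other, whereas both tumour libraries numbered VII held the least, and the differences of -0.53 (95% confidence interval -1.55 to 0.49) and -0.82 (-1.84 to 0.20) did not pass.

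Between populations the differences were larger. Neutrophils exceeded monocytes by 2.82 in LP (SE 0.49, adjusted p = 6.73e-05) and by 3.29 in tumours (SE 0.49, adjusted p = 9.60e-06), and macrophages exceeded monocytes by 2.41 in LP (SE 0.42, adjusted p = 2.20e-04), each called under all alternatives. In tumours the macrophage excess was 1.12 (adjusted p = 0.0421), and that call was lost in 7 of the 9 fits without 1 library, with the highest adjusted p without tumour monocyte library II (0.175), and with centred libraries (0.07), only the libraries compared (0.0733) and voom (0.0779). The genes most like Klf2 were Ifi27 (r = 0.89), Gramd1a (0.88) and Tceal9 (0.86).

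Of 8 other Krueppel-like factors tested, 0 rose in tumours in any of the 4 populations and 0 fell in either macrophage subset by the limma test. The unadjusted p was under 0.05 for 3 of the 8 in MHCIIhi and 1 in MHCIIlow macrophages, and voom called 1 in each. In monocytes 1 fell, Klf11, with overlapping libraries. In neutrophils 2 fell, Klf11 by 2.07 (SE 0.32, adjusted p = 6.58e-05) and Klf10. The medians of the 8 were -0.38 in MHCIIhi macrophages, -0.30 in MHCIIlow macrophages, -0.37 in monocytes and -0.48 in neutrophils. The shares of all genes that rose and fell were 8.01% and 11.5% in MHCIIhi and 11.5% and 11.8% in MHCIIlow macrophages. They were 4.86% and 4.43% in monocytes and 13.1% and 19% in neutrophils.

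Klf2, Klf4, Klf6 and Myc can themselves respond quickly to stimuli. Of 18 further immediate-early genes, which handling and digestion of tissue can raise, some differed between the tissues in each population. In tumour MHCIIhi macrophages 7 rose and 1 fell, with the stress factor Atf3 at 2.46 (adjusted p = 5.84e-07) and Dusp1 at -0.79 (adjusted p = 0.00895). In MHCIIlow macrophages 3 rose and 3 fell, with Btg2 at 1.42 (adjusted p = 0.00184) and Ier3 at -1.38 (adjusted p = 0.00633, lost without tumour library VII at 0.0527). In monocytes 8 rose and 0 fell, with Nr4a3 at 3.03 (adjusted p = 3.28e-05). Among all genes 8.01% rose and 11.5% fell in MHCIIhi macrophages, and 11.5% and 11.8% in MHCIIlow macrophages. These shares were 4.86% and 4.43% in monocytes.

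In neutrophils 12 of the 18 rose and 0 fell, against 13.1% and 19% of all genes, with Fosb at 2.40 (adjusted p = 9.74e-07). The summed level of the 18 was 11300 to 13200 RPKM in LP and 28000 to 35000 in tumours. Klf6 rose in neutrophils and did not pass in monocytes, and a link between Klf6 and the 18 genes was not tested. The median of the 18 was 0.54 in MHCIIhi macrophages, 0.06 in MHCIIlow macrophages, 0.66 in monocytes and 1.29 in neutrophils. The medians of all genes were 0, 0.06, 0 and -0.12. Digestion and tissue cannot be told apart in these groups.

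Sirt1 was the member whose mean was lower in tumours in all 4 populations. In MHCIIlow macrophages it was 2.43, 1.92 and 1.8 log2 RPKM in LP libraries II, III and IV and 0.85, 0.84 and 1.03 in tumour libraries I, V and VII. The groups did not overlap, and Sirt1 fell by 1.14 (SE 0.32, adjusted p = 0.0129), a call lost without LP library II (-0.95, adjusted p = 0.072). In neutrophils it was 1.63, 0.92 and 0.80 in LP libraries III, IV and V and 0.14, 0.26 and 0.20 in tumour libraries I, II and V, again without overlap.

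In neutrophils Sirt1 fell by 0.91 (SE 0.32, adjusted p = 0.0352) on 135 to 393 reads in LP and 47 to 73 in tumours. That call was lost without LP library III (-0.66, adjusted p = 0.169) and without tumour library I (0.0752), II (0.0586) or V (0.0636). It was also lost with libraries centred on their median (0.125), with only the neutrophil libraries (0.117) and with voom (0.171).

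In MHCIIhi macrophages Sirt1 was 1.44, 1.82 and 1.46 in LP libraries III, IV and V and 0.93, 0.20 and 0.85 in tumour libraries I, V and VII. Tumour libraries lay below LP libraries without overlap, at -0.91 (SE 0.32), and the adjusted p of 0.0517 missed the threshold that it passed with log2(RPKM + 1) (0.0287), centred libraries (0.0421), voom (0.00875) and the pool number as a block (0.04998). In monocytes it was 1.81, 1.02 and 1.22 in LP libraries III, IV and V and 0.35, 0.23 and 1.06 in tumour libraries I, II and V, which overlap through tumour library V (-0.80, 95% confidence interval -1.47 to -0.13, adjusted p = 0.132).

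The 4 tumour effects on Sirt1 lay between -0.80 and -1.14, and none of the 3 differences tested between them passed (adjusted p = 0.821 to 0.944). Within a tissue Sirt1 passed no test of macrophages against monocytes or of neutrophils against monocytes in the main scaling. Neutrophils were not tested against macrophages. With library sizes as summed reads it was lower in neutrophils than in monocytes, by -1.06 in LP (adjusted p = 0.00906) and -1.48 in tumours (5.48e-04), and with centred libraries the sign of both turned. The genes most like Sirt1 were Eif1a (r = 0.87), Aqp1 (0.84) and Ttc1 (0.81). Of the 6 other sirtuins, 0 passed limma's test or voom's in MHCIIhi macrophages and monocytes, with 1 and 0 at an unadjusted p under 0.05. In MHCIIlow macrophages 2 rose and 1 fell, with Sirt7 at 0.42 (adjusted p = 0.0354, lost in 5 of the 6 fits without a library, all but LP library III, with up to 0.165 without LP library IV) and Sirt2, a deacetylase of tubulin, at -0.65 (adjusted p = 0.00319). In neutrophils 1 rose and 0 fell, Sirt3 of mitochondria at 2.08 (adjusted p = 0.00274). By limma 19.5% of all genes passed in MHCIIhi macrophages, 23.3% in MHCIIlow macrophages, 9.29% in monocytes and 32.2% in neutrophils.

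**Figure D4:**
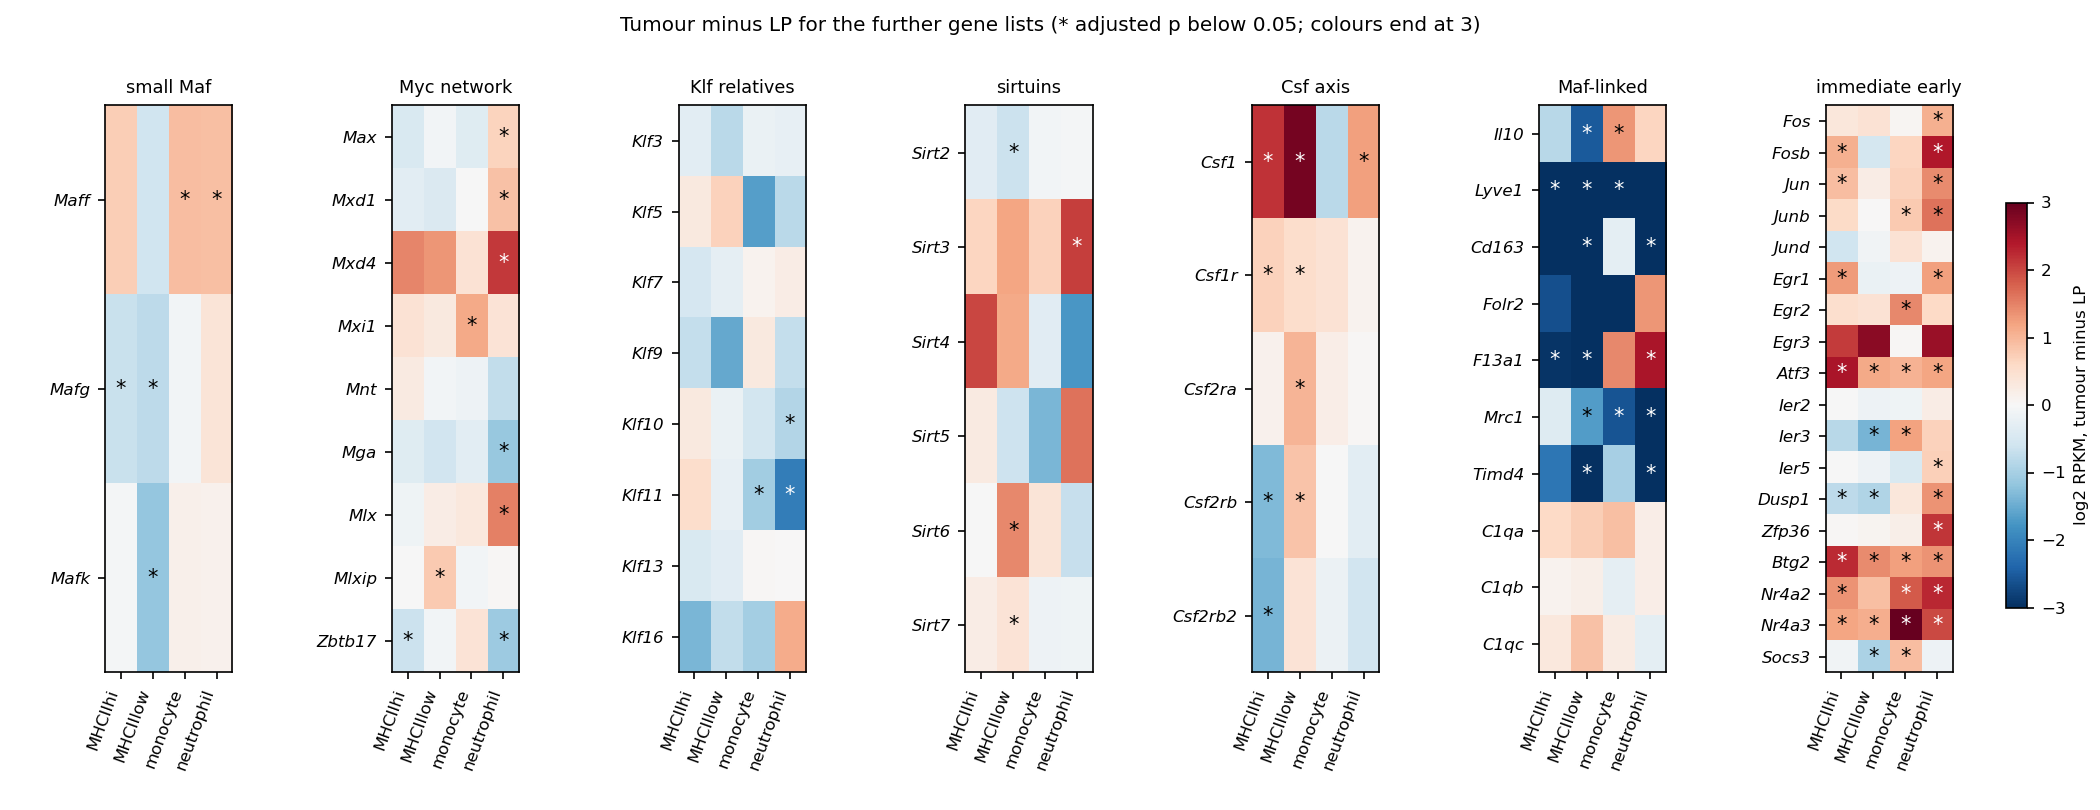
Difference between tumour and LP in log2 RPKM for the tested genes of 7 further lists (rows) in the 4 populations (columns), with colours that end at -3 and 3 and an asterisk where the adjusted p is below 0.05. The lists hold 3 small Maf proteins, 9 partners of Myc, 8 Krueppel-like factors, 6 sirtuins, 5 genes of the Csf axis, 10 Maf-linked genes and 18 immediate-early genes. The last rise in 12 cases in neutrophils, where 13.1% of all genes did.

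The growth factor Csf1, which drives macrophage growth, rose in tumour macrophages. In MHCIIhi macrophages Csf1 was 1.51, 0.88 and 0.98 log2 RPKM in LP libraries III, IV and V and 3.91, 3.57 and 2.42 in tumour libraries I, V and VII, a rise of 2.18 (SE 0.41, adjusted p = 7.47e-04). In MHCIIlow macrophages it was 1.17, 1.39 and 0.67 in LP libraries II, III and IV and 3.98, 4.27 and 3.58 in tumour libraries I, V and VII, a rise of 2.87 (SE 0.41, adjusted p = 3.39e-05). Both held with each library left out, and no library of a tumour overlapped one of LP.

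Csf1 was most abundant in neutrophils, at 4.84 to 5.81 in LP and 6.45 to 6.73 in tumours (difference 1.23, adjusted p = 0.0271, lost without LP library IV at 0.0558 or V at 0.117 and without tumour library I at 0.0535 or II at 0.0752). Of the 5 genes of this axis tested, 2 rose and 2 fell in tumour MHCIIhi macrophages, with the receptor subunit Csf2rb2 at -1.39 (adjusted p = 1.92e-04). In MHCIIlow macrophages 4 rose and 0 fell, in neutrophils 1 rose, and in monocytes 0 passed by limma, with 1 at an unadjusted p under 0.05 and 1 called by voom. By limma 19.5% of all genes passed in MHCIIhi macrophages, 23.3% in MHCIIlow macrophages, 9.29% in monocytes and 32.2% in neutrophils.

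Of 13 other transcription factors of the monocyte and macrophage lineage, 2 rose and 4 fell in tumour MHCIIhi macrophages, 1 rose and 3 fell in MHCIIlow macrophages, 2 rose and 0 fell in monocytes, and 2 rose and 2 fell in neutrophils. The shares of all genes that rose and fell were 8.01% and 11.5% in MHCIIhi and 11.5% and 11.8% in MHCIIlow macrophages. They were 4.86% and 4.43% in monocytes and 13.1% and 19% in neutrophils. Nr4a1, an orphan nuclear receptor and itself an early-response gene, rose by 2.41 in MHCIIhi macrophages (adjusted p = 3.27e-05), by 2.23 in monocytes (adjusted p = 2.74e-04) and by 3.81 in neutrophils (adjusted p = 1.51e-07). Irf4 fell in MHCIIlow macrophages by 4.96 (adjusted p = 1.75e-05), from 4.08, 2.83 and 3.39 in LP libraries II, III and IV to -1.71, -2.97 and 0.09 in tumour libraries I, V and VII. In MHCIIhi macrophages Irf4 was at -1.98 (adjusted p = 0.0446), lost with each library left out (up to 0.135, without LP library IV), and Irf8 was 0.55 higher in MHCIIlow macrophages (adjusted p = 0.047), lost with each library left out (up to 0.164, without LP library IV).

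Among the 7 genes, levels over the 24 libraries were most alike for Maf and Klf4 (r = 0.80), Maf and Myc (r = 0.80) and Klf2 and Klf6 (r = 0.76), and Maf and Klf6 ran in opposite directions (r = -0.69). These values describe 24 libraries from 8 groups, which share populations and tissues, and largely set macrophages and monocytes against neutrophils.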

How the data were processed

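RNA of 24 libraries in 8 groups of 3 was analysed. The authors prepared SMARTSeq v2 and Nextera XT libraries and, per the labels, aligned with STAR 2.3 to GRCm38/mm10 and counted with featureCounts 1.5; they left out genes with few reads and deposited values as log2 RPKM. Whole reads were recovered from 100% of the 415224 values (1 gene length per gene, prior of 0.25 reads, tolerance 0.05 reads) and gave depth. The fit used limma 3.58.1 under R 4.3.3 (trend, 8 group means, 24 libraries, genes whose mean reached 1 RPKM in some group), with Benjamini-Hochberg adjustment within each of 13 comparisons and a threshold of 0.05. The fit was tested on simulated data. Alternatives were log2(RPKM + 1), no filter, a group mean of 5 RPKM as the filter, median centring, only the libraries compared, voom on the recovered reads, the pool number as a random block, each library left out and, chosen after seeing the data, library sizes as summed reads. The pool number is the labels' donor number and joins libraries of a tissue; it does not join LP to tumour. Residuals of 29 same-pool pairs correlated at -0.07 to 0.25 (median 0.02). Members and lists were chosen with earlier results of these data known. Named further genes are those most like a member (Pearson r over 24 libraries, genes reaching 10 RPKM in some group, no predicted genes) and, per list and tumour comparison, the largest rise and fall among called genes without overlap that reach 5 RPKM. Symbols were matched for 17190 of 17301 genes. Some genes that these rules would name are not reported here.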

Additional observations from a re-analysis of the deposited data

Results flagged for a closer look

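The difference between tumour and LP depended on the population for 4 results, by the limma test of the difference itself, which does not say why. In macrophages against monocytes it was 3.10 higher for Maf (adjusted p = 3.89e-04), 1.89 higher for Myc (adjusted p = 0.0295) and -1.47 for Klf4 (adjusted p = 0.0358). In neutrophils against monocytes it was 1.23 higher for Klf6 (adjusted p = 0.0169). Each of the 3 values of macrophages takes the same LP and tumour monocyte libraries, and that of Klf6 takes them too. Groups of 3 libraries were not screened for outlying libraries.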

How the results depend on the processing

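Of the 31 calls among the 91 results of the 7 genes, 15 were kept under every alternative and 18 with every library left out, and 1 reversed (Klf6 in LP neutrophils against monocytes, at -0.034 with library sizes as summed reads). The cause of the changes was not tested. The number of members called moved by over 1.5 times in 16 cases, given here, and by 1 call within that limit in 15 others. Between tumour and LP it moved in MHCIIhi macrophages from 1 to 2 with log2(RPKM + 1), 2 with centred libraries, 3 with voom and 2 with the replicate block, in MHCIIlow macrophages from 3 to 6 with voom, in monocytes from 2 to 1 with only the libraries compared, and in neutrophils from 3 to 1 with only the libraries compared and 1 with voom. Between macrophage subsets of LP it moved from 1 to 3 with log2(RPKM + 1), 3 with voom and 2 with summed reads, and between macrophages and monocytes of tumours from 3 to 5 with log2(RPKM + 1). For the difference of tumour effects it moved between macrophage subsets from 0 to 1 with log2(RPKM + 1), 1 with only the libraries compared and 2 with voom, and between neutrophils and monocytes from 1 to 2 with log2(RPKM + 1). The replicate block, the pool number within a tissue, changed no other call of a member; it pairs libraries of 1 tissue, and between LP and tumour the libraries share only a number. Of the 40 calls of further genes named above, 18 were lost under at least 1 setting that kept all libraries. With only the libraries compared 11 were lost (F13a1, Noc4l, Sirt3 and Zbtb17 in neutrophils, Ier3, Mafk, Mlxip and Sirt7 in MHCIIlow macrophages, Mafg in MHCIIhi macrophages, and Mrc1 and Nop2 in monocytes), with summed reads 6, with no filter 5, with voom 4 (F13a1, Noc4l, Il10 and Nop2), with centred libraries 2 and with the block 1 (Maff in monocytes).

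With single libraries left out the count ran from 0 to 1 in MHCIIhi macrophages, 1 to 3 in MHCIIlow macrophages, 2 to 2 in monocytes and 2 to 4 in neutrophils for tumour against LP. It ran from 0 to 1 between macrophage subsets in LP and was 0 in tumours, 2 to 4 and 2 to 3 between macrophages and monocytes in LP and tumours, and 4 to 5 and 4 to 4 between neutrophils and monocytes. For the differences of tumour effects it was 0 between macrophage subsets, 1 to 3 between macrophages and monocytes and 0 to 2 between neutrophils and monocytes.

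The other changes of sign were in differences that had not passed the test. With centred libraries they were Klf2 at -0.023 between tumour macrophage subsets, Klf4 at 0.19 in tumour against LP neutrophils, Klf6 at -0.12 in tumour macrophages against monocytes, Mycl at 0.20 in tumour neutrophils against monocytes (0.52 with voom), and Sirt1 at 0.054 and 0.10 in neutrophils against monocytes of LP and tumours and at 0.048 for their difference. With summed reads Myc was at -0.88 in tumour neutrophils against monocytes. Leaving out libraries turned the sign of 14 results. Between tumour macrophage subsets Klf2 ran from -0.38 to 0.48 and Maf from -0.34 to 0.052. Between tumour and LP Klf4 ran from -0.28 to 0.39 in neutrophils and Klf6 from -0.24 to 0.15 in monocytes. Between macrophages and monocytes Klf6 ran from -0.19 to 0.20 in tumours and Maf from -0.028 to 0.11 in LP. Between tumour neutrophils and monocytes Myc ran from -0.14 to 0.53 and Mycl from -2.37 to 1.76. For differences of tumour effects Klf2 ran from -0.68 to 0.18 and Klf6 from -0.40 to 0.063 between macrophage subsets, Klf2 from -0.16 to 0.96, Klf4 from -0.58 to 0.088 and Sirt1 from -0.34 to 0.15 between neutrophils and monocytes, and Sirt1 from -0.46 to 0.031 between macrophages and monocytes.

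Depth limits Mycl, with 0 to 225 reads a library, and Maf in neutrophils, with 3 to 115. Summed-read library sizes shift the median of all genes by -0.47 in tumour against LP neutrophils, by -0.83 and -1.13 in neutrophils against monocytes of LP and tumours, and by 0.34 in tumour macrophages against monocytes; in the first of these the calls split into 1690 higher of 4142 in the main scaling, 2375 of 4163 with centred libraries and 811 of 5102 with summed reads.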
